A study of Mus musculus with 16 samples.

Results

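The leukocyte tetraspanins CD53, CD37, CD82, CD81, CD9, CD63 and CD151 were followed in *PKBα*-/- and wild-type thymocytes. All probe sets annotated to the 7 gene symbols were taken, without regard to their values. This gave 14 probe sets of 6 genes, out of 45101 probe sets on the array: 2 each for *Cd53*, *Cd37* and *Cd82*, 1 each for *Cd81* and *Cd9*, and 6 for *Cd151*. No probe set carried the symbol *Cd63* in the annotation used here, and this gene was not analysed.

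Tetraspanins are small proteins that cross the plasma membrane several times and gather integrins, co-receptors, immunoglobulin superfamily members and signaling enzymes into membrane domains. CD53 and CD37 are largely restricted to leukocytes, whereas CD81, CD82, CD9 and CD151 are found on many cell types. In T cells, CD81 and CD82 associate with CD4 and CD8 and can co-stimulate through the T cell receptor, and CD37 and CD151 restrain T cell proliferation in mice.

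The samples came from 4 littermate pairs of a C57Bl/6 backcross, each consisting of a mouse with a germline deletion of *PKBα* (*Akt1*) and a wild-type mouse of the same sex and age. A female and a male pair were 3 weeks old, another male pair was 2 weeks old, and another female pair was 5 weeks old. From every mouse ISP8 thymocytes (CD8-positive, CD3- and CD4-negative) and DN3 thymocytes (lineage-negative, CD25-positive, CD44-negative) were sorted, which gave 16 arrays in the 4 groups *PKBα*-/- ISP8, wild-type ISP8, *PKBα*-/- DN3 and wild-type DN3, with n = 4 mice in each. DN3 cells are the stage at which the pre-T cell receptor is selected, and ISP8 cells follow them on the way to the double positive stage. As the deletion was present in all tissues of the mouse, the thymic stroma of *PKBα*-/- animals lacked PKBα as well. Values are GC-RMA expression values, in which the fluorescence intensity of the probes is background-corrected and normalized, on a linear scale. They can be compared between samples for a probe set. Between genes the paper holds them to be comparable only semi-quantitatively, after a correction for GC bias in the probes. Where 4 values are listed for a group, they belong to the 3-week female, the 3-week male, the 2-week male and the 5-week female pair, in this order.

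The labels were checked with *Akt1* and the genes of the sort. *Akt1* had values of 4.87 to 6.81 in *PKBα*-/- ISP8 cells, against 1628 to 2211 in their wild-type counterparts, and of 2.01 to 27.3 in *PKBα*-/- DN3 cells, against 1198 to 2007 in their wild-type counterparts. Of 6 DN3-stage genes, 5 were lower in ISP8 than in DN3 cells of wild-type mice, and of 4 genes of the ISP8 and later stages *Cd8a* and *Cd8b1* were higher (limma, adjusted p under 0.05). The recombinase gene *Rag1*, from the same list, was lower in wild-type ISP8 cells (-0.65, adjusted p = 4.7e-05), and *Cd4* did not pass there (2.06, adjusted p = 0.061). The array medians were 56.0 to 60.3 in *PKBα*-/- ISP8, 55.1 to 60.4 in wild-type ISP8, 58.5 to 67.5 in *PKBα*-/- DN3 and 58.7 to 70.5 in wild-type DN3 cells. The log2 difference between the 3′ and the 5′ actin control probe sets, a measure of RNA integrity and amplification, averaged 2.49 in *PKBα*-/- ISP8, 2.26 in wild-type ISP8, 2.73 in *PKBα*-/- DN3 and 2.90 in wild-type DN3 cells. The same measure on the GAPDH control probe sets averaged 1.92 in *PKBα*-/- ISP8, 1.82 in wild-type ISP8, 1.80 in *PKBα*-/- DN3 and 1.88 in wild-type DN3 cells, without the lower ISP8 values seen with actin. The part of the actin difference in the comparison of the subsets was not tested.

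The sequence around the annotated start (250 bases before it and 50 after it, RefSeq, GRCm38.p6) is shown for 3 members, *Cd53* and *Cd37*, whose transcripts were lower in ISP8 than in DN3 cells, and *Cd81*, whose transcript was higher. Capitals mark every match, on either strand, to 6 motifs: GAGGAA, the core of PU.1-type Ets sites; CAGGTG, an E box; CAGCTG, another E box; GGGCGG, the GC box; TATAAA, the TATA box; and TGTGGT, the core of Runx sites. No matches overlapped in these windows.
Cd53, chr3:106790100-106790399, minus strand: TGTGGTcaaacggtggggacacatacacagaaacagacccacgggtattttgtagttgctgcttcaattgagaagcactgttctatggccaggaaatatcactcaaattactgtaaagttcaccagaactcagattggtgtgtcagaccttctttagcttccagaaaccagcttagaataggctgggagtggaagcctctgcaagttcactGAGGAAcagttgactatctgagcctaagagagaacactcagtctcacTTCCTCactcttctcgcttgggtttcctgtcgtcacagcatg
Cd37, chr7:45238790-45239089, minus strand: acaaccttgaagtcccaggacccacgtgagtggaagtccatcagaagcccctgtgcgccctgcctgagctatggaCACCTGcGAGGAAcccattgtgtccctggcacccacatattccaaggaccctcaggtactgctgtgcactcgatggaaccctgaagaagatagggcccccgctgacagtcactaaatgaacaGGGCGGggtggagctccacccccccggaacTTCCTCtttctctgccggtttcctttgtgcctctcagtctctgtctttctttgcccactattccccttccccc
Cd81, chr7:143052500-143052799, plus strand: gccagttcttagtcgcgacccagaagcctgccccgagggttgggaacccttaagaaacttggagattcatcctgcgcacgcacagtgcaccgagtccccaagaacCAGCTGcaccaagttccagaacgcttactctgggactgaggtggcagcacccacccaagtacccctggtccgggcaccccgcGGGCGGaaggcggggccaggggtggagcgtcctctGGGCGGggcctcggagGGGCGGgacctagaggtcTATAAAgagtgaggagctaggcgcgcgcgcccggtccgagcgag
The *Cd53* window held 2 GAGGAA matches, 1 TGTGGT match and 4 CG dinucleotides. The *Cd37* window, at a start inside the span annotated for the gene, held 2 GAGGAA matches, 1 CAGGTG match, 1 GGGCGG match and 8 CG dinucleotides. The *Cd81* window held 3 GGGCGG matches, 1 CAGCTG match, 1 TATAAA match and 23 CG dinucleotides. Among all 32851 windows of this kind, GAGGAA was found in 28.3%, CAGGTG in 20.2%, CAGCTG in 16.3%, GGGCGG in 35.7%, TATAAA in 13.6% and TGTGGT in 16.8%, and the median number of CG dinucleotides was 7. Windows of the other members with lower ISP8 values are given beside these, and whether the motifs go with the direction was not tested. Of 4 windows of *Cd82* 1 held GAGGAA and 2 held GGGCGG, while the 2 windows of *Cd151* and the 1 of *Cd9* held 0 GAGGAA matches and each gene had 2 GGGCGG matches in 1 window. The letters are a description of the windows and were not tested for function.

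The first comparison asked how tetraspanin transcripts differ between ISP8 and DN3 cells of the same mouse. *Cd53*, *Cd82*, *Cd37* and 2 probe sets of *Cd151* were lower in ISP8 cells of both genotypes, and *Cd81* was higher. Of the 14 probe sets 13 passed the filter on low values, a value above 20 in at least 1 cell subset of a mouse in at least 3 of 4 mice. In *PKBα*-/- mice 10 of these passed the test, 1 higher and 9 lower in ISP8 cells, against 11.9% of all probe sets tested that were higher and 16.2% that were lower (28.1% together). In wild-type mice 8 passed, 1 higher and 7 lower, against 11.6% higher and 17.3% lower (28.9% together). The median log2 difference over the 13 probe sets was -1.27 in *PKBα*-/- and -0.87 in wild-type mice, whereas over all probe sets tested it was -0.05 in *PKBα*-/- and -0.09 in wild-type mice. Since 5 of the 13 belong to *Cd151*, the probe sets are not independent of each other. Differences are log2 values, ISP8 minus DN3, from limma with the mouse as a block, with Benjamini-Hochberg adjustment over all probe sets tested. In a sorted population, fewer cells that express a gene and less of its RNA per cell cannot be told apart.

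*Cd53*, a pan-leukocyte tetraspanin that associates with CD2 in the rat, lies on chromosome 3 (106758861-106790149, minus strand; RefSeq gene span, GRCm38.p6, as for all genes here). Its main probe set, 1448617_at, had values of 295, 281, 158 and 415 in *PKBα*-/- ISP8 cells and of 348, 475, 163 and 567 in wild-type ISP8 cells. In DN3 cells the values were 3525, 3200, 1783 and 4084 in *PKBα*-/- and 3112, 2118, 1491 and 3618 in wild-type mice. The ISP8 and DN3 samples did not overlap, and in each mouse the ISP8 value was the lower. The difference was -3.47 (SE 0.12, 11.1-fold lower, adjusted p = 1.7e-10) in *PKBα*-/- mice and -2.80 (SE 0.17, 6.94-fold lower, adjusted p = 9.1e-08) in wild-type mice. A low probe set of the gene, 1459744_at, had values of 9.05 to 39.4 in *PKBα*-/- ISP8 and 4.20 to 30.8 in wild-type ISP8 cells, against 88.8 to 225.5 in *PKBα*-/- DN3 and 37.5 to 167 in wild-type DN3 cells. Its difference was -3.00 (SE 0.46, adjusted p = 2.0e-04) in *PKBα*-/- mice and -3.05 (SE 0.70, adjusted p = 0.0046) in wild-type mice, and the wild-type value became -2.59 (adjusted p = 0.063) without the 5-week pair.

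*Cd82*, a co-stimulatory tetraspanin also known as a metastasis suppressor, lies on chromosome 2 (93419102-93462950, minus strand). The probe set 1416401_at had values of 290, 312, 364 and 370 in *PKBα*-/- ISP8 cells and of 292, 214, 265 and 267 in wild-type ISP8 cells. In DN3 cells it had values of 1884, 1762, 1716 and 1165 in *PKBα*-/- mice and of 1730, 1634, 1507 and 969 in wild-type mice. Every ISP8 sample was thus below every DN3 sample, and the DN3 values of the 5-week pair were the lowest of their groups. The difference was -2.27 (SE 0.16, 4.83-fold lower, adjusted p = 1.6e-07) in *PKBα*-/- and -2.47 (SE 0.18, 5.53-fold lower, adjusted p = 3.4e-07) in wild-type mice. The other probe set, 1449611_at, ranged from 8.81 to 129.7 over the 16 arrays with overlapping groups, and its difference was -0.36 (95% interval -1.48 to 0.76) in *PKBα*-/- and -0.10 (-1.10 to 0.89) in wild-type mice.

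*Cd37*, a tetraspanin best known from B cells, lies on chromosome 7 (45233632-45239340, minus strand). The probe set 1425736_at had values of 615, 348, 375 and 501 in *PKBα*-/- ISP8 cells and of 432, 265, 315 and 412 in wild-type ISP8 cells. In DN3 cells its values were 904, 812, 1488 and 1249 in *PKBα*-/- and 1206, 881, 1229 and 1289 in wild-type mice. The subsets did not overlap. The difference was -1.27 (SE 0.19, 2.41-fold lower, adjusted p = 1.4e-04) in *PKBα*-/- and -1.71 (SE 0.15, 3.26-fold lower, adjusted p = 2.1e-06) in wild-type mice. The other probe set, 1419206_at, was also lower, at -1.14 (SE 0.20, adjusted p = 6.8e-04) in *PKBα*-/- and at -1.02 (SE 0.25, adjusted p = 0.0066) in wild-type mice.

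*Cd81*, a partner of CD4 and CD8, lies on chromosome 7 (143052750-143067930, plus strand) and was the member with higher values in ISP8 cells. Its probe set, 1416330_at, had values of 2749, 2965, 2814 and 2601 in *PKBα*-/- ISP8 cells and of 2647, 2665, 2853 and 1666 in wild-type ISP8 cells. In DN3 cells the values were 506, 932, 845 and 163 in *PKBα*-/- and 574, 657, 872 and 230.3 in wild-type mice. The subsets did not overlap, and the 5-week pair had the lowest value in every group. The difference was 2.46 (SE 0.27, 5.50-fold higher, adjusted p = 1.1e-05) in *PKBα*-/- and 2.20 (SE 0.17, 4.59-fold higher, adjusted p = 5.2e-07) in wild-type mice. Single *PKBα*-/- mice ranged from 1.67 to 3.99 and single wild-type mice from 1.71 to 2.85, with the highest of both genotypes in the 5-week pair.

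**Figure D1:**
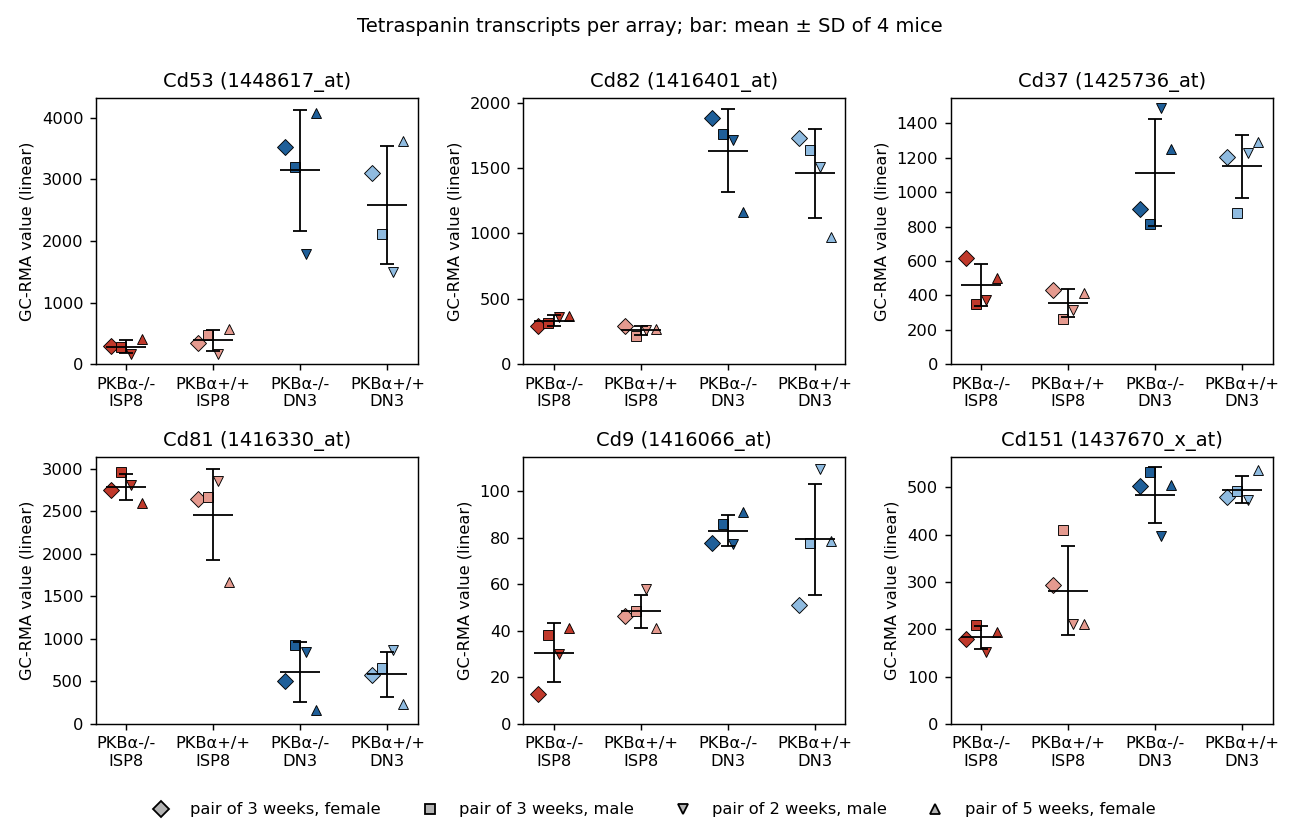
GC-RMA values (linear scale) of 1 probe set per gene, the one with the highest mean of its gene, in *PKBα*-/- ISP8, wild-type (PKBα+/+) ISP8, *PKBα*-/- DN3 and wild-type DN3 cells; each symbol is a mouse, its shape the littermate pair, and bars show the mean ± SD of 4 mice. *Cd53*, *Cd82*, *Cd37* and *Cd151* were lower in ISP8 than in DN3 cells with no overlap within a genotype, *Cd81* was higher, and the wild-type subsets overlapped for *Cd9*.

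*Cd9*, a tetraspanin of platelets, stromal cells and activated lymphocytes, lies on chromosome 6 (125460266-125494760, minus strand) and had low values. The probe set 1416066_at had values of 12.8, 38.0, 29.8 and 41.2 in *PKBα*-/- ISP8 cells and of 46.3, 48.3, 58.1 and 41.0 in wild-type ISP8 cells. In DN3 cells the values were 77.6, 85.8, 77.3 and 91.2 in *PKBα*-/- and 51.1, 77.6, 109.7 and 78.7 in wild-type mice. The subsets were apart in *PKBα*-/- mice and overlapped in wild-type mice. *Cd9* was lower in ISP8 cells of *PKBα*-/- mice at -1.57 (SE 0.44, adjusted p = 0.015), a call that was lost without the 3-week female pair (-1.23, adjusted p = 0.058). In wild-type mice the difference was -0.67 (SE 0.38, 95% interval -1.49 to 0.15, adjusted p = 0.22). The test of the difference between genotypes gave -0.90 (SE 0.57, 95% interval -2.12 to 0.32, adjusted p = 0.96).

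*Cd151*, a binding partner of laminin-binding integrins, lies on chromosome 7 (141467362-141471481, plus strand). The probe set with the highest mean, 1437670_x_at, had values of 179, 208, 151 and 193 in *PKBα*-/- ISP8 cells and of 294, 409.7, 210.1 and 211 in wild-type ISP8 cells. In DN3 cells the values were 503, 532, 397 and 506 in *PKBα*-/- and 479, 493, 473 and 537 in wild-type mice. It was lower in ISP8 cells at -1.40 (SE 0.17, adjusted p = 2.7e-05) in *PKBα*-/- and at -0.87 (SE 0.21, adjusted p = 0.0057) in wild-type mice. The probe set 1456085_x_at was lower at -1.46 (SE 0.20, adjusted p = 6.7e-05) in *PKBα*-/- and at -1.17 (SE 0.22, adjusted p = 0.0012) in wild-type mice. A further probe set, 1424093_x_at, was lower at -0.95 (SE 0.29, adjusted p = 0.023) in *PKBα*-/- mice, but this call was lost after quantile normalization (-0.74, adjusted p = 0.078) and without either 3-week pair (-0.81 each, adjusted p = 0.081 and 0.085). In wild-type mice its value was -0.51 (adjusted p = 0.22). The probe sets 1451232_at and 1427525_at did not pass in either genotype (-0.60 to -0.09, adjusted p 0.32 to 0.87), and 1420921_at, above 20 on 2 of 16 arrays, was not tested. With the mean of the probe sets of the gene in place of single ones, *Cd151* in wild-type mice gave -0.28 (adjusted p = 0.50). This mean includes the untested 1420921_at, with wild-type values of 3.6 to 16.8 in ISP8 and 1.82 to 4.24 in DN3 cells. The part of this probe set in the mean was not tested. Probe sets whose name ends in _x_at may bind further transcripts.

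**Figure D2:**
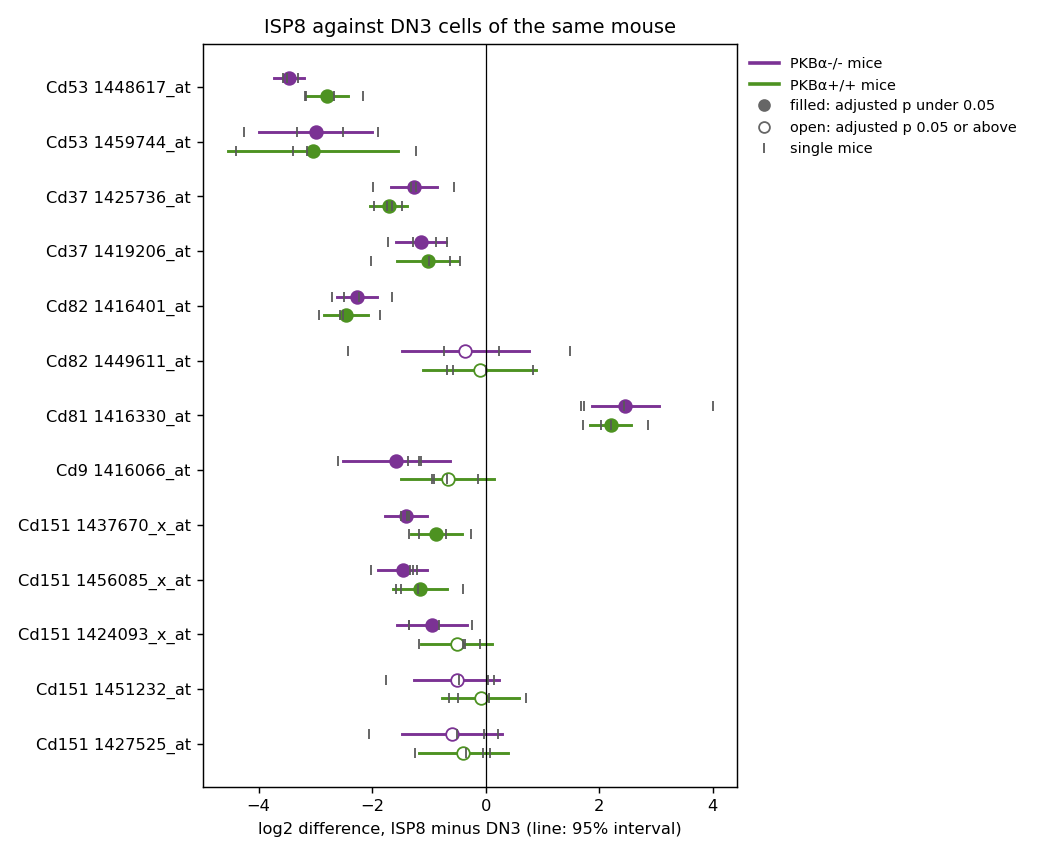
The log2 difference ISP8 minus DN3 for 13 probe sets, with the *PKBα*-/- estimate above the wild-type (PKBα+/+) one; lines are 95% intervals, ticks are single mice, and filled circles passed an adjusted p of 0.05. *Cd81* lies to the right of 0 at 2.46 and 2.20, and the main probe set of *Cd53* lies farthest to the left among those with a narrow interval, at -3.47 and -2.80.

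The second comparison asked whether the loss of PKBα changed these transcripts. None of the tetraspanin probe sets passed limma's test. The methods' paired test (p up to 0.05 and at least 1.5-fold in at least 3 of 4 pairs) took 0 as well. It was rerun here on the deposited values, without detection calls, and is not the study's own selection. In ISP8 cells 0 of 12 were called, against 0.0147% of all probe sets (5 of 34016), and 2 had an unadjusted p under 0.05, against 6.08%. In DN3 cells 0 of 13 were called, against 0.0383% (13 of 33962), and 2 had an unadjusted p under 0.05, against 4.83%. Differences are log2 values, *PKBα*-/- minus wild-type, with the littermate pair as a block. The 95% intervals below give the size of change that the 4 pairs still allow.

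For *Cd53* the main probe set was lower in *PKBα*-/- than in wild-type ISP8 cells in 4 of 4 pairs, at -0.37 (SE 0.18, 1.29-fold lower, 95% interval -0.76 to 0.01, adjusted p = 0.82). This value was -0.24 without the 3-week male pair and -0.48 without the 2-week pair, and with the mean of both *Cd53* probe sets the sign turned (0.29, adjusted p = 0.92). The sign was the same in all pairs for 14.7% of all probe sets tested in ISP8 and for 12.5% in DN3 cells. In DN3 cells it was higher in 4 of 4 pairs, by 0.30 (SE 0.09, 95% interval 0.10 to 0.50, adjusted p = 0.90). The genotype effect in ISP8 minus that in DN3 cells was -0.67 (SE 0.22, 95% interval -1.13 to -0.22), had the same sign in 4 of 4 pairs and had an unadjusted p of 0.0068, yet an adjusted p of 0.96. No probe set on the array passed this test of a difference between subsets (0 of 36835, 0%, against 4.75% with an unadjusted p under 0.05), and 1 of 13 tetraspanin probe sets had an unadjusted p under 0.05. The ranges of the genotypes overlapped in both subsets. The study lists this probe set among genes selected in ISP8 cells on these same samples, so its direction there is not independent evidence. The summed values of 6 neutrophil and mast cell genes, cells that also carry CD53, were 112 to 287 in *PKBα*-/- and 276 to 3175 in wild-type ISP8 cells. The highest sum came from the wild-type mouse of the 3-week male pair, in which the neutrophil gene *S100a8* had a value of 1915, against 19.8 to 254 in the other wild-type ISP8 samples and 2.11 to 77.9 in *PKBα*-/- ISP8 cells. In DN3 cells the same 6 genes summed to 1295 to 3463 in *PKBα*-/- and 1892 to 4503 in wild-type mice. The sums of 9 dendritic cell and macrophage genes were 998 to 1782 in *PKBα*-/- and 848 to 1422 in wild-type DN3 cells. In ISP8 cells these sums were 783 to 1532 in *PKBα*-/- and 965 to 1407 in wild-type mice. Their part in the *Cd53* values was not tested. The low *Cd53* probe set 1459744_at did not pass the filter in ISP8 cells. In DN3 cells its difference was 0.91 (95% interval 0.16 to 1.66, higher in 4 of 4 pairs, adjusted p = 0.97), with pairs between 0.06 and 2.59. Its genotype effect in ISP8 minus that in DN3 cells was 0.05 (95% interval -1.71 to 1.80).

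Among the other members the sign of the genotype difference was the same in 4 of 4 pairs for 1 probe set each of *Cd37*, *Cd82* and *Cd151*, in 1 subset each, which is to be read against the 14.7% and 12.5% above. *Cd37* 1425736_at was higher in *PKBα*-/- ISP8 cells in 4 of 4 pairs, by 0.36 (95% interval 0.04 to 0.68, adjusted p = 0.80), while *Cd37* 1419206_at had a difference of -0.14 (-0.60 to 0.32) there. In DN3 cells the values were -0.08 (-0.34 to 0.18) and -0.02 (-0.39 to 0.36). *Cd82* 1416401_at had differences of 0.37 (-0.01 to 0.75, adjusted p = 0.82) in ISP8 and 0.17 (-0.04 to 0.38, higher in 4 of 4 pairs, adjusted p = 0.97) in DN3 cells. *Cd81* had differences of 0.21 (-0.03 to 0.45) in ISP8 and -0.05 (-0.40 to 0.29) in DN3 cells, and the ISP8 value became 0.063 without the 5-week pair. For *Cd9* they were -0.79 (-1.91 to 0.33) in ISP8 and 0.11 (-0.56 to 0.79) in DN3 cells, and the ISP8 value became -0.43 without the 3-week female pair. *Cd151* 1437670_x_at was lower in *PKBα*-/- ISP8 cells in 4 of 4 pairs, at -0.57 (-1.01 to -0.13, adjusted p = 0.79), and its ISP8 ranges of 151 to 208 in *PKBα*-/- and 210.1 to 409.7 in wild-type cells did not overlap. In DN3 cells its difference was -0.04 (-0.34 to 0.27). The other *Cd151* probe sets tested gave -0.40 to -0.26 in ISP8 cells and -0.10 to 0.15 in DN3 cells, with every interval including 0. The untested 1420921_at had values of 6.00 to 43.3 in *PKBα*-/- DN3 and 1.82 to 4.24 in wild-type DN3 cells, ranges that did not overlap but lay mostly below the filter value of 20.

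**Figure D3:**
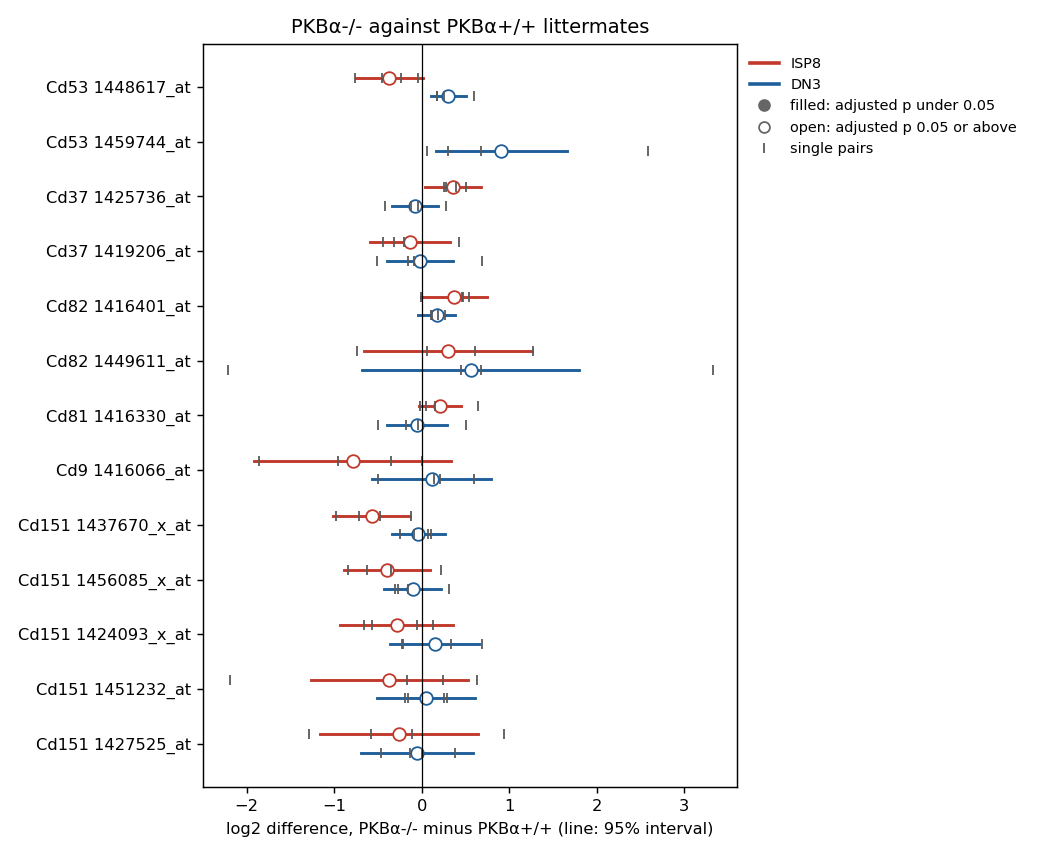
The log2 difference *PKBα*-/- minus wild-type for 13 probe sets (12 in ISP8), with the ISP8 estimate above the DN3 one; lines are 95% intervals and ticks are single littermate pairs. All circles are open (adjusted p at or above 0.05); the intervals of *Cd37* 1425736_at and *Cd151* 1437670_x_at in ISP8 and of both *Cd53* probe sets in DN3 cells do not include 0.

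The 4 groups were ordered by their mean for each probe set. For *Cd53* 1448617_at the means were 287 ± 105 in *PKBα*-/- ISP8, 388 ± 175 in wild-type ISP8, 3148 ± 981 in *PKBα*-/- DN3 and 2585 ± 959 in wild-type DN3 cells (SD, n = 4). In this order from high to low, *PKBα*-/- DN3, wild-type DN3, wild-type ISP8 and *PKBα*-/- ISP8, the neighbours of 1 subset overlapped and only the step between subsets separated all samples. *Cd82* 1416401_at, both *Cd37* probe sets, *Cd81*, *Cd151* 1456085_x_at and *Cd151* 1424093_x_at likewise had their only clear step between the subsets. *Cd151* 1437670_x_at differed from these, in that the *PKBα*-/- DN3 range of 397 to 532 reached into the wild-type ISP8 range of 210.1 to 409.7, and the *PKBα*-/- ISP8 samples lay below all others. For *Cd9*, *Cd53* 1459744_at, *Cd82* 1449611_at and the *Cd151* probe sets 1451232_at, 1427525_at and 1420921_at all neighbouring groups overlapped. The share of all probe sets whose groups do not overlap was not counted, for subsets or for genotypes. The separations given here and above can therefore not be read as particular to tetraspanins.

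The values of *Cd53* also followed the littermate pair. In each of the 4 groups the 2-week pair had the lowest and the 5-week pair the highest value of 1448617_at. This pattern was noticed after the values were seen, and 54 of 36835 probe sets (0.147%) shared it, while 25 (0.0679%) had the reverse pattern. *Cd81* and the DN3 values of *Cd82* were lowest in the 5-week pair. As each age other than 3 weeks was represented by 1 pair, age, sex and litter cannot be told apart.

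**Figure D4:**
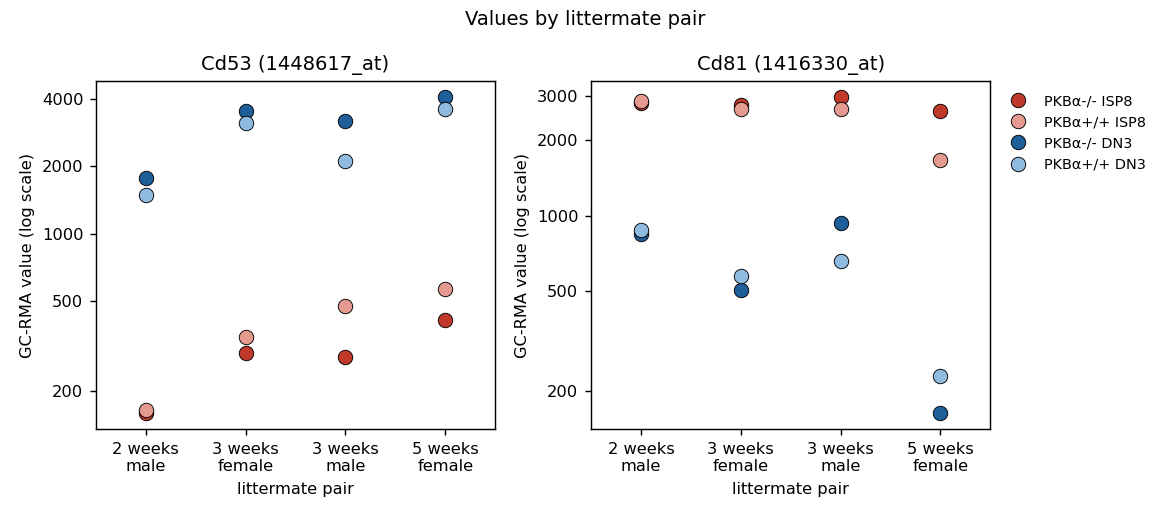
GC-RMA values (log scale) of *Cd53* 1448617_at and *Cd81* 1416330_at by littermate pair, ordered by age; each point is 1 mouse, coloured by group. *Cd53* was lowest in the 2-week and highest in the 5-week pair in every group, and *Cd81* was lowest in the 5-week pair in every group.

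Further tetraspanins were described with the probe set of the highest mean per gene. Of 24 genes 23 had a probe set, and *Tspan7* was not listed. In *PKBα*-/- mice 20 were tested, of which 1 was higher and 7 were lower in ISP8 cells, against 14.2% higher and 19.1% lower among all genes. In wild-type mice 18 were tested, of which 2 were higher and 6 were lower, against 14.1% and 19.8%. The median difference was -0.57 in *PKBα*-/- and -0.78 in wild-type mice, against -0.03 in *PKBα*-/- and -0.05 in wild-type mice over all genes. No gene of this list passed the test of genotype in either subset (limma). Over all genes 0% were higher and 0.0206% lower in ISP8 cells, and 0.0277% higher and 0.0277% lower in DN3 cells. An unadjusted p under 0.05 was found for 3 of 18 tested in ISP8 and 2 of 20 in DN3 cells. Over all probe sets this share was 6.08% in ISP8 and 4.83% in DN3 cells.

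*Tspan9* was lower in ISP8 cells at -3.24 (SE 0.19, adjusted p = 2.1e-08) in *PKBα*-/- and at -2.84 (SE 0.24, adjusted p = 1.3e-06) in wild-type mice. It shares chromosome 6 with *Cd9* at a distance of 2466635 bases. *Tspan2*, which is abundant in oligodendrocytes, was lower at -1.25 (SE 0.10, adjusted p = 6.9e-07) in *PKBα*-/- and at -1.66 (SE 0.14, adjusted p = 1.9e-06) in wild-type mice. *Tspan31* was lower at -1.16 (SE 0.12) in *PKBα*-/- and at -1.15 (SE 0.14) in wild-type mice, and the urothelial gene *Upk1b*, with values of 10.1 to 72.3 in ISP8 cells, at -1.28 (SE 0.36, adjusted p = 0.015) in *PKBα*-/- and at -2.14 (SE 0.55, adjusted p = 0.0096) in wild-type mice. In wild-type mice *Tspan9*, *Tspan31* and *Upk1b* no longer passed with the mean of their probe sets (adjusted p = 0.30, 0.39 and 0.11), nor did *Upk1b* without the 3-week female pair (-1.54, adjusted p = 0.051).

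*Tspan6* and *Tspan32* were the genes of this list that were higher in wild-type ISP8 cells. *Tspan6* was higher by 0.74 (SE 0.13, adjusted p = 4.5e-04) in *PKBα*-/- and by 0.80 (SE 0.13, adjusted p = 5.2e-04) in wild-type mice. *Tspan32*, a negative regulator of T cell proliferation in mice, lies next to *Cd81* on chromosome 7, 33263 bases away with 0 annotated genes between them. It had values of 186, 129, 163 and 198 in *PKBα*-/- ISP8 and 371, 308, 153 and 204 in wild-type ISP8 cells, against 131, 122, 31.7 and 175 in *PKBα*-/- DN3 and 273, 59.9, 21.1 and 102 in wild-type DN3 cells. The difference was 0.78 (SE 0.35, adjusted p = 0.12) in *PKBα*-/- and 1.67 (SE 0.37, higher in 4 of 4 mice, adjusted p = 0.0036) in wild-type mice, and without the pairing of the samples the wild-type call was lost (adjusted p = 0.053).

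Known partners of tetraspanins moved in both directions between the subsets. Of these genes 17 had a probe set, and 16 were tested. In *PKBα*-/- mice 8 were higher and 3 were lower in ISP8 cells, and in wild-type mice 6 were higher and 3 were lower. Over all genes 14.2% were higher and 19.1% lower in *PKBα*-/- mice, and 14.1% and 19.8% in wild-type mice. The median difference was 0.39 in *PKBα*-/- and 0.31 in wild-type mice, against -0.03 in *PKBα*-/- and -0.05 in wild-type mice over all genes. None passed the test of genotype (limma), against 0.0206% of all genes lower in ISP8 cells and 0.0277% in each direction in DN3 cells. In this test 2 of 16 genes in ISP8 and 2 of 15 in DN3 cells had an unadjusted p under 0.05. Over all probe sets this share was 6.08% in ISP8 and 4.83% in DN3 cells. *Cd8a* and *Cd8b1*, the co-receptor chains that CD81 and CD82 bind, were higher by 5.98 (SE 0.46) and 3.88 (SE 0.20) in *PKBα*-/- mice and by 4.63 (SE 0.16) and 3.44 (SE 0.24) in wild-type mice, and CD8 was a marker of the ISP8 sort. *Cd2*, whose product associates with CD53 in the rat, was higher by 4.08 (SE 0.27, adjusted p = 7.6e-08) in *PKBα*-/- and by 3.78 (SE 0.19, adjusted p = 2.0e-08) in wild-type mice. Among the integrins *Itgb2* was higher by 1.21 (SE 0.11) in *PKBα*-/- and by 1.37 (SE 0.16) in wild-type mice. *Itga4*, the chain with which CD81 associates in VLA-4, was lower at -0.83 (SE 0.08) in *PKBα*-/- and at -1.21 (SE 0.09) in wild-type mice, and *Itgal*, the LFA-1 chain, at -0.54 (SE 0.11) in *PKBα*-/- and at -0.56 (SE 0.12) in wild-type mice. *Prkca*, a protein kinase C that tetraspanins recruit, was lower at -1.70 (SE 0.11) in *PKBα*-/- and at -1.63 (SE 0.13) in wild-type mice. *Itgal* no longer passed in wild-type mice with the mean of its probe sets (adjusted p = 0.34).

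For each member the 3 genes with the most similar pattern were those with the highest Pearson correlation of log2 values over the 16 arrays, among 15601 genes. The arrays include both subsets, so that any gene that differs strongly between DN3 and ISP8 cells correlates, and each mouse contributed 2 arrays. *Cd53* was followed most closely by *Gm2a* (r = 0.987), *Lpxn* (0.983) and *Nkg7* (0.982), and *Cd82* by *Sh3bp5* (0.984), *Pld4* (0.984) and *Vwce* (0.979). *Cd37* was most similar to *Slc38a9* (0.978), *Nsun4* (0.971) and 5830408C22Rik (0.968). The genes most like *Cd81* were *Coq7* (0.968), *Septin11* (0.968) and *Ahcy* (0.966). *Cd151* 1437670_x_at was nearest to *Tsc22d1* (0.965), *Sdhaf4* (0.957) and *Tmed10* (0.955), and *Cd9* to *Ninj2* (0.938), *Insl6* (0.920) and *Acadsb* (0.915).

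As tetraspanins are expressed by many cells of the thymus, markers of other cell types were read in the same samples. The summed values of 9 dendritic cell and macrophage genes were 783 to 1532 in *PKBα*-/- ISP8, 965 to 1407 in wild-type ISP8, 998 to 1782 in *PKBα*-/- DN3 and 848 to 1422 in wild-type DN3 cells. Their leading gene *Lyz2* had 8.20 to 205, 69.2 to 291, 406 to 850 and 295 to 560 in the same groups. The other 8 genes summed to 761 to 1328, 895 to 1248, 592 to 1290 and 552 to 897. The sums of 5 platelet and megakaryocyte genes, cells rich in CD9 and CD151, were 205 to 283, 171 to 241, 113 to 231 and 138 to 317. Those of 2 erythroid genes were 9.49 to 53.8, 14.9 to 101, 5.01 to 38.8 and 10.7 to 38.4. In each of the remaining lists the gene with the highest mean is described apart from the others. In 10 thymic epithelium and stroma genes this was *Epcam*, with 41.9 to 132 in *PKBα*-/- ISP8 and 33.3 to 112 in wild-type ISP8 cells, against 332 to 813 in *PKBα*-/- DN3 and 449 to 952 in wild-type DN3 cells. The other 9 genes summed to 165 to 346 in *PKBα*-/- ISP8 and 203 to 339 in wild-type ISP8 cells, against 182 to 273 in *PKBα*-/- DN3 and 242 to 347 in wild-type DN3 cells, so that the lower ISP8 values were those of *Epcam*. In 6 neutrophil and mast cell genes it was the mast cell protease gene *Cpa3*, with means of 19.2 in *PKBα*-/- ISP8 and 58.5 in wild-type ISP8 cells, against 1713 in *PKBα*-/- DN3 and 1977 in wild-type DN3 cells. *Kit*, which early thymocytes also express, was likewise lower in ISP8 cells of both genotypes. *S100a8* and *S100a9* did not pass the test between subsets. Their wild-type means were 590.4 and 238 in ISP8 against 289.7 and 129 in DN3 cells. In *PKBα*-/- mice the means were 26.7 and 9.37 in ISP8 against 79.6 and 35.5 in DN3 cells. Among wild-type ISP8 samples *S100a8* had 1915 in the 3-week male pair and 19.8 to 254 in the others. In 5 B cell genes *Ighm* made up most of the sum and was higher in ISP8 cells, by 0.86 in *PKBα*-/- and 0.91 in wild-type mice, while *Cd79b* was lower, at -2.12 in *PKBα*-/- and -2.21 in wild-type mice. In 3 NK cell genes *Gzma* made up most of the sum and was higher, by 0.23 in *PKBα*-/- and 0.59 in wild-type mice, while *Nkg7* was lower, at -3.48 in *PKBα*-/- and -3.01 in wild-type mice. No gene of these lists passed the test of genotype (limma), against 0.0206% of all genes lower in ISP8 cells and 0.0277% in each direction in DN3 cells. An unadjusted p under 0.05 was found for 6.08% of all probe sets in ISP8 and 4.83% in DN3 cells. In these lists it was found for 7 of 33 genes tested in ISP8 (21.2%) and for 11 of 33 in DN3 cells (33.3%). Among them were 4 of 6 neutrophil and mast cell genes in ISP8 cells (median difference -1.86) and 2 of 6 in DN3 cells (median -1.28). Of the dendritic cell and macrophage genes there were 4 of 9 in DN3 cells (median 0.38) and 1 of 7 in ISP8 cells (median -0.23). Of the platelet and megakaryocyte genes there were 2 of 4 in DN3 cells (median -1.26) and 0 of 4 in ISP8 cells (median 0.21). The part of other cells in the tetraspanin differences was not tested.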

How the data were processed

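DN3 and ISP8 thymocytes of 4 *PKBα*-/- and wild-type littermate pairs were profiled on 16 Affymetrix mouse genome arrays, 1 per mouse and subset. The same cell number was sorted from both mice of a pair, and RNA was amplified in 2 cycles, which lowers precision for weak transcripts. The authors deposited GC-RMA intensity values on a linear scale, made with the Genedata Refiner software, and these were used as log2 values without a constant. Detection calls were not used here. The number of arrays limits the precision. Probe sets were named with the platform annotation: 34958 had 1 symbol, 932 several and 9211 none. *Cd63* was not analysed.

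Comparisons were fitted with limma 3.58.1 (R 4.3.3, intensity trend), with the pair as a block for genotype and the mouse for the subset difference and for the difference of genotype effects. Probe sets needed a value above 20 on at least 1 array of a block in at least 3 of 4 blocks. The pairing comes from the labels, which name each sample's littermate. Residuals of partners correlated at 0.0706 to 0.178 among ISP8 and at 0.316 to 0.384 among DN3 arrays, and those of the 2 arrays of a mouse at 0.111 to 0.152 in *PKBα*-/- and 0.134 to 0.29 in wild-type mice. Scripts were tested on simulated data.

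Members and lists were chosen with earlier results of these data known. Every member probe set was to be named. For other tetraspanins and partners the rule was any gene that passed a test of genotype, and up to 4 per direction, by size, that passed in the wild-type subset comparison and moved the same way in 4 of 4 mice. Their *PKBα*-/- values stand beside them. Alternatives were no filter, a filter at 100, a constant of 20, quantile normalization, 1 fit of all arrays, robust moderation, no replicate block, the mean of a gene's probe sets, the methods' paired test and leaving out each pair. Figures were drawn with matplotlib 3.10.9 (Python 3.11.15).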

Additional observations from a re-analysis of the deposited data

Results flagged for a closer look

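The genotype effect of *Cd53* 1448617_at had opposite signs in the subsets in 4 of 4 pairs, with a difference of -0.67 on the log2 scale (ISP8 minus DN3), and the test of this difference did not pass (limma, adjusted p = 0.96).

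In 4 of 52 groups of 4 mice 1 value stood apart by Dixon's criterion, which chance alone meets in about 5% of groups. *Cd53* 1459744_at had 30.8 in the wild-type ISP8 cells of the 2-week pair, against 4.20 to 7.89 in the others. *Cd151* 1424093_x_at had 71.4 in the wild-type ISP8 cells of the 5-week pair, against 107 to 109. *Cd151* 1451232_at had 196.6 in the wild-type ISP8 cells of the 3-week male pair, against 72.9 to 90.1, and 70.3 in the wild-type DN3 cells of the 2-week pair, against 120.2 to 126. All 4 were wild-type samples.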

How the results depend on the processing

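The members called numbered 0 for genotype in ISP8 cells, for genotype in DN3 cells and for the difference between subsets under every alternative run, including no replicate block and the methods' paired test, which took 521 probe sets in ISP8 and 458 in DN3 cells over the whole array and 0 after Benjamini-Hochberg adjustment. For the subset difference 10 of 13 were called in *PKBα*-/- and 8 of 13 in wild-type mice. Over all probe sets tested 9556 of 34038 and 9968 of 34506 were called. Without the replicate block 10 and 8 were called, all of them called with it, against 8559 and 8383 over all probe sets tested. With the mean of a gene's probe sets 6 of 6 genes in *PKBα*-/- and 4 of 6 in wild-type mice were called. Over all genes this setting called 3746 of 13251 and 3976 of 13381. Leaving out 1 pair gave 8 to 10 and 7 to 8 of the members. Over all probe sets it gave 7792 to 8366 calls in *PKBα*-/- and 8002 to 9423 in wild-type mice. Quantile normalization moved the median of all wild-type subset differences to 0.03, against -0.09 as deposited, and the split of higher and lower calls to 4637 and 4580 in *PKBα*-/- (4058 and 5498 as deposited) and to 4649 and 4639 in wild-type mice (4003 and 5965). Apart from the methods' paired test, the genotype calls over the whole array ranged from 1 to 11 in ISP8 cells (5 in the main analysis, 2 without the replicate block, 3 without a filter, 1 with a filter at 100, 1 with the mean of probe sets, 11 without the 5-week pair, 1 without the 3-week female pair) and from 1 to 45 in DN3 cells (13 in the main analysis, 1 without the block, 8 without a filter, 27 with a constant of 20, 3 in 1 fit of all arrays, 1 with the mean of probe sets, 45 without the 2-week pair, 25 without the 5-week pair, 23 without the 3-week female pair).

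Of 932 values of named probe sets under the alternatives, 888 kept their sign and their side of the threshold, 16 lost their call and 28 turned their sign. The lost calls of tetraspanins and partners stand beside their values, and *Akt1* no longer passed in DN3 cells with robust moderation (adjusted p = 0.070), with the mean of its probe sets (-3.90, adjusted p = 0.055) and in the adjusted methods' paired test (0.98; in ISP8 cells 0.33). Signs turned, in values that passed no test in the main analysis, with the mean of probe sets for *Cd53* and genotype in ISP8 (0.29), *Cd151* and genotype in DN3 (0.49) and *Cd82* and the difference between subsets (-0.031), with quantile normalization for *Cd82* 1449611_at (0.024) and *Cd151* 1451232_at (0.17) in the wild-type subset difference, and with a constant of 20 for *Cd53* 1459744_at in the difference between subsets (-0.39). Signs also turned on leaving out a pair. For genotype in ISP8 cells the range was -0.66 to 0.083 for *Cd151* 1427525_at and -0.71 to 0.23 for *Cd151* 1451232_at. For genotype in DN3 cells it was -0.032 to 0.27 for *Cd151* 1424093_x_at, -0.20 to 0.083 for 1427525_at, -0.0898 to 0.031 for 1437670_x_at, -0.0297 to 0.13 for 1451232_at, -0.25 to 0.15 for *Cd37* 1419206_at, -0.19 to 0.038 for *Cd37* 1425736_at, -0.24 to 0.093 for *Cd81*, -0.36 to 1.48 for *Cd82* 1449611_at and -0.049 to 0.32 for *Cd9*. For the subset difference it was -0.98 to 0.33 for *Cd82* 1449611_at in *PKBα*-/- and -0.36 to 0.091 for *Cd151* 1451232_at in wild-type mice. For the difference between subsets it was -0.46 to 0.0004 for *Cd151* 1427525_at, -0.82 to 0.26 for 1451232_at, -0.15 to 0.29 for *Cd53* 1459744_at, -0.030 to 0.47 for *Cd81* and -0.84 to 0.75 for *Cd82* 1449611_at. The causes were not tested. Probe sets near 20, such as *Cd9*, *Cd53* 1459744_at and *Cd82* 1449611_at, have the widest intervals, and 4 pairs leave genotype changes of the size of the intervals undetected.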
